A study of Rattus norvegicus with 30 samples.

Results

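The mitochondrially encoded subunits of respiratory complex I are 7 proteins whose genes lie on the mitochondrial genome, and in the rat these genes are Mt-nd1, Mt-nd2, Mt-nd3, Mt-nd4l, Mt-nd4, Mt-nd5 and Mt-nd6. They were found by 7 rat Ensembl identifiers among the 32545 that each count table lists: ENSRNOG00000030644 for Mt-nd1, ENSRNOG00000031033 for Mt-nd2, ENSRNOG00000033615 for Mt-nd3, ENSRNOG00000031053 for Mt-nd4l, ENSRNOG00000029707 for Mt-nd4, ENSRNOG00000029971 for Mt-nd5 and ENSRNOG00000029042 for Mt-nd6. All 7 were listed, and all 7 passed the filter on low counts in a table of 14801 genes tested. RNA was sequenced from the intermediate laminae of the gray matter of the cervical spinal cord at vertebral level C3, taken bilaterally from adult female Long Evans Crl:LE rats whose thoracic spinal cord had been injured (SCI) or who had a sham operation. The 30 libraries, each of 1 rat, form 6 groups of 5: rats killed 1, 3, 6 or 12 weeks after SCI, and sham-operated rats killed 1 or 12 weeks after surgery. The tissue lies above the injury, and the study asked how gene expression there changes as hindlimb corticospinal fibers sprout into it. It is a mixed tissue of neurons and glia, so fewer cells of a type and less RNA per cell cannot be told apart in any value below. The 5 rats of a group were those chosen for sequencing on RNA quality and quantity.

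Complex I (NADH:ubiquinone oxidoreductase) is the first enzyme of the respiratory chain. It takes electrons from NADH, passes them to ubiquinone and pumps protons across the inner mitochondrial membrane. Most of its subunits are encoded in the nucleus, and the mitochondrially encoded ones build the core of the membrane arm that pumps the protons. Mitochondrial genes are transcribed as long polycistronic RNAs that are then cut into single messages. Mt-nd6 is the only member that is encoded on the light strand of the mitochondrial genome, opposite to the others. Mt-nd4l and Mt-nd4 share a bicistronic message in which their reading frames overlap.

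The libraries held 6459555 to 37410793 counts, and the 4 shallowest held at most 8132674. On the first principal component of all genes, SCI 3 weeks replicate 1 stood at 42.3 and SCI 12 weeks replicate 2 at -21.2, while the other 28 libraries lay between -12.9 and 12.3. Both of these that stood apart are among the 4 shallow libraries, and the remaining shallow ones are SCI 6 weeks replicates 1 and 2. The library titled as sham 1 week replicate 1 has injury in its fields for surgery and source, and was kept as sham, by its title. The identifiers of genes other than the members could not be paired with names, so lists of nuclear complex I genes and markers of spinal cord cell types were not tested, and the labelled tissue was not checked against its markers. No gene lengths were used, so levels are compared between groups and rats for 1 gene, and not between genes.

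The 7 genes together took 0.432% ± 0.0704 (SD, n = 30) of all counts, with 0.273% in the lowest and 0.528% in the highest library. By group, the mean share was 0.487% ± 0.0315 at SCI 6 weeks, 0.477% ± 0.0296 in sham 12 weeks, 0.439% ± 0.0747 at SCI 1 week, 0.411% ± 0.0714 in sham 1 week, 0.392% ± 0.0991 at SCI 3 weeks and 0.387% ± 0.0456 at SCI 12 weeks (SD, n = 5 each). The rats of SCI 6 weeks and of sham 12 weeks lay close together, and those of SCI 3 weeks were spread most widely. The 5 lowest rats were SCI 3 weeks replicate 4 at 0.273% and replicate 5 at 0.317%, sham 1 week replicate 5 at 0.323%, SCI 12 weeks replicate 3 at 0.335% and SCI 1 week replicate 1 at 0.345%. Low rats thus came from 4 of the 6 groups, with 1 sham rat among them.

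**Figure D1:**
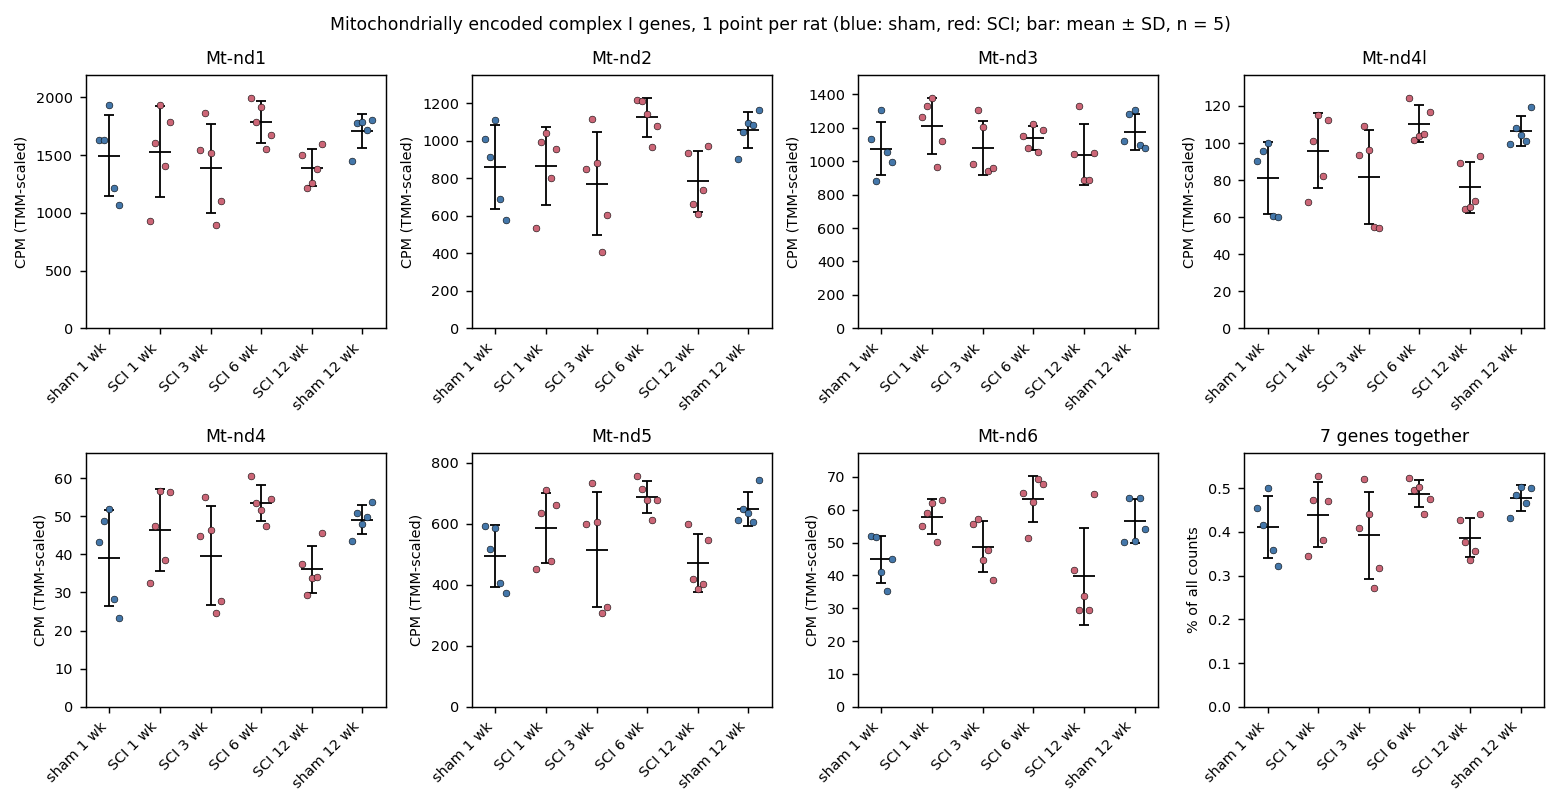
Level of each gene in CPM (counts per 1000000 counts, scaled by TMM factors) in each of 30 rats, and the summed share of all counts in percent, by group; points are rats, bars are mean ± SD (n = 5). Rats of SCI 12 weeks lie below the sham 12 weeks rats for Mt-nd4l and Mt-nd5 without overlap on this scale (Mt-nd5 overlaps in CPM without TMM factors), while the groups overlap at 1 week for all 7 genes.

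Levels below are counts per 1000000 counts of the library (CPM), scaled by TMM factors, which correct for differences in library composition. For 6 of the 7 genes, all but Mt-nd3, the highest mean was at SCI 6 weeks. Mt-nd1, a subunit near the ubiquinone-binding end of the membrane arm, had means from 1385 ± 383 CPM at SCI 3 weeks to 1787 ± 179 CPM at SCI 6 weeks. Mt-nd2, a proton-pumping subunit, ranged from 772 ± 273 CPM at SCI 3 weeks to 1125 ± 105 CPM at SCI 6 weeks. Mt-nd4 and Mt-nd5, the other antiporter-like pumping subunits, were lowest at SCI 12 weeks, with 36.0 ± 6.09 and 470 ± 95.2 CPM, and highest at SCI 6 weeks, with 53.5 ± 4.81 and 688 ± 52.8 CPM (SD, n = 5). Mt-nd4l, a small subunit of the membrane arm, ran from 76.2 ± 13.7 CPM at SCI 12 weeks to 110 ± 9.94 CPM at SCI 6 weeks. Mt-nd3, a small subunit at the junction of both arms, varied least, from 1039 ± 181 CPM at SCI 12 weeks to 1211 ± 168 CPM at SCI 1 week. Mt-nd6 was at 39.8 ± 14.8 CPM at SCI 12 weeks and 63.2 ± 7.07 CPM at SCI 6 weeks. When the 6 group means of a gene were put in order, each of the 5 steps between neighbours was smaller than the larger SD of the 2 groups, for all 7 genes. Steps between neighbours of 6 ordered means are small by construction, so this does not describe the distance between the highest and the lowest group.

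A test of any difference among the 6 groups (edgeR's quasi-likelihood test with Benjamini-Hochberg adjustment over 14801 genes) called 0 of the 7 genes at an adjusted p under 0.05, where it called 0.027% of all genes tested. Mt-nd6 had the lowest edgeR adjusted p, 0.257, followed by Mt-nd4l at 0.422. Those 2 members had an unadjusted p under 0.05, against 11.3% of all genes. DESeq2 called 1 member in this test, Mt-nd6, with an adjusted p of 0.0108, among 141 of 14801 genes called. Limma-voom called 0 members and 13 genes in all, with a lowest adjusted p of the members of 0.0992. Without SCI 12 weeks replicate 5, edgeR called Mt-nd6 with an adjusted p of 0.00485, among 4 of 14931 genes called. That rat had the highest Mt-nd6 level of its group, so leaving it out lowers the group mean by construction. Over the alternatives, that fit included, the lowest adjusted p of the members ran from 0.00485 to 0.382. The difference between groups took 52.7% of the sum of squares of Mt-nd6, 38.8% for Mt-nd4l and 18.5% for Mt-nd3, where the median over all genes tested was 19.2%.

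The comparison of SCI 12 weeks with sham 12 weeks asks what differs long after the injury at equal time since surgery. All 7 genes had lower fitted levels after injury, with a median log2 fold change of -0.44 where the median of all genes was 0.0031, and none passed at the adjusted threshold (0 of 7, against 0.0% of all genes). An unadjusted p under 0.05 was found for 4 of the 7, Mt-nd6, Mt-nd4l, Mt-nd5 and Mt-nd4, against 5.3% of all genes. For 2 of the 7, Mt-nd4l and Mt-nd5, the injured rats lay wholly below the sham rats, against 0.466% of all genes. In CPM without TMM factors, an alternative chosen after seeing the data, this held for 1 of 7, Mt-nd4l, against 0.243%. Mt-nd1, Mt-nd2, Mt-nd4l, Mt-nd4 and Mt-nd5 moved closely together from rat to rat. Mt-nd3 and Mt-nd6 followed them less closely, as shown further on. The counts out of 7 are therefore not 7 separate observations. Without SCI 12 weeks replicate 2, the library that stood apart, all 7 were still lower, with a median of -0.38 and a lowest edgeR adjusted p of 0.625.

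Mt-nd5 was at 598, 419, 386, 402 and 545 CPM in the 5 rats of SCI 12 weeks and at 613, 649, 635, 605 and 742 CPM in those of sham 12 weeks. The highest injured rat was just under the lowest sham rat on this scale, while in CPM without TMM factors they overlapped, with injured replicate 1 at 601 and sham replicate 4 at 599 CPM. The log2 fold change was -0.46 (SE 0.198, 95% interval -0.87 to -0.057), with an edgeR adjusted p of 0.903. Mt-nd4l was at 89.2, 64.1, 65.7, 69.0 and 92.9 CPM after injury and at 99.4, 108, 104, 101 and 119 CPM after sham surgery. As for Mt-nd5, replicates 1 and 5 of the injured group were nearest to the sham rats and replicates 2, 3 and 4 were the lowest. Its log2 fold change was -0.48 (SE 0.187, 95% interval -0.87 to -0.096), with an edgeR adjusted p of 0.903.

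Mt-nd6, the light-strand gene, was at 41.6, 29.4, 33.7, 29.4 and 64.7 CPM at SCI 12 weeks and at 50.2, 63.5, 50.5, 63.7 and 54.2 CPM in sham 12 weeks. Replicates 1 to 4 of the injured group lay below every sham rat, and replicate 5 lay above them all. The log2 fold change was -0.49 (SE 0.162, 95% interval -0.82 to -0.16), which is 0.711 times the sham level, with an edgeR adjusted p of 0.856. Without SCI 12 weeks replicate 5 the log2 fold change was -0.75 with an edgeR adjusted p of 0.0127, and Mt-nd6 was then the 1 gene called among 14931 tested. Over the other alternatives and left-out libraries the lowest adjusted p of any member in this comparison was 0.502, with DESeq2. No label sets replicate 5 apart from the other 4 rats of its group, and it is named here for its Mt-nd6 level, the value under test. Leaving it out lowers the group mean by construction, so a call of Mt-nd6 without it is no separate support.

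Mt-nd4 had a log2 fold change of -0.44 and Mt-nd2 of -0.43 in the same comparison, both with an edgeR adjusted p of 0.903. Mt-nd1 stood at -0.30 and Mt-nd3 at -0.18. The 95% intervals of all 7 genes stayed within a change of 2-fold in either direction, and that of 1 gene stayed within 1.5-fold. The summed share of the 7 genes at SCI 12 weeks minus that in sham 12 weeks was -0.0903 percentage points, with individual rats at 0.335% to 0.441% against 0.431% to 0.503%. The groups overlapped in this share by 1 rat on each side, SCI 12 weeks replicate 5 and sham 12 weeks replicate 1.

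**Figure D2:**
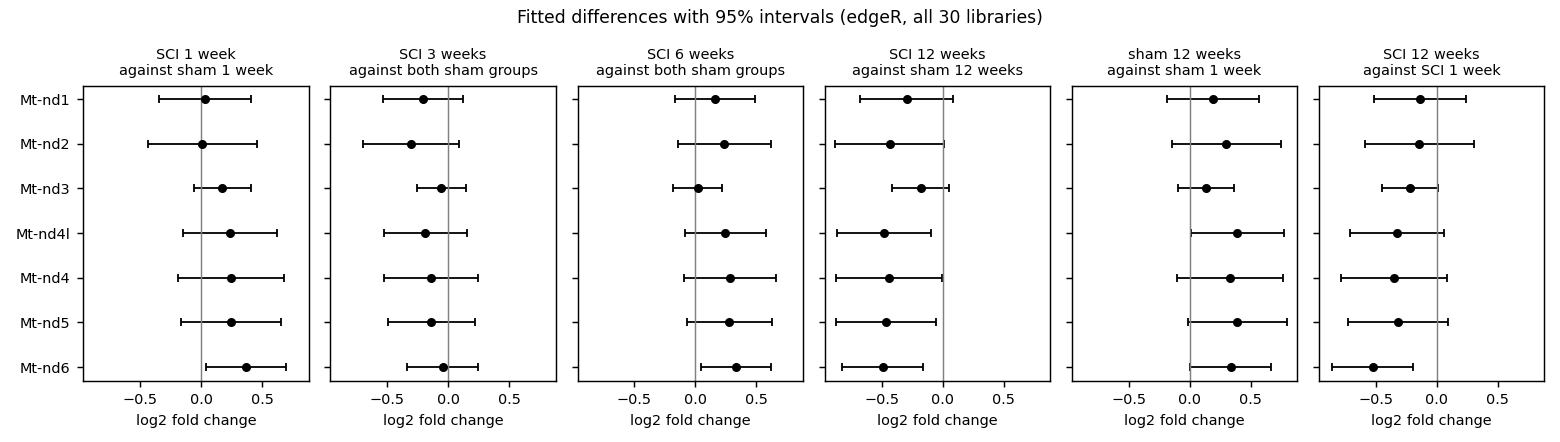
Fitted log2 fold changes of the 7 genes with 95% intervals (edgeR, n = 5 rats a group) in 6 comparisons, with 0 marked. In each of the 6 panels all 7 points lie on the same side of 0. They lie to the left at SCI 3 weeks and in both panels of SCI 12 weeks, and to the right in the others. No gene of the 7 passed the adjusted threshold in any panel.

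The comparison of SCI 1 week with sham 1 week asks the same early after the injury. All 7 genes had higher fitted levels after injury, with a median log2 fold change of 0.24 against -0.0032 for all genes. None of the 7 passed, against 0.358% of all genes, and 1, Mt-nd6, had an unadjusted p under 0.05, against 13.9%. The injured rats lay wholly above the sham rats for 0 of 7, against 1.84%. All 7 stayed higher without sham 1 week replicate 1, whose labels disagree (median 0.28, lowest edgeR adjusted p of 0.271), and with that library counted as injured (median 0.27, lowest 0.358). Mt-nd6 was at 55.1, 59.1, 62.1, 50.3 and 62.8 CPM at SCI 1 week and at 51.9, 51.6, 40.9, 35.3 and 44.9 CPM in sham 1 week. The groups overlapped through injured replicate 4, which lay below sham replicates 1 and 2. The log2 fold change of Mt-nd6 was 0.37 (SE 0.160), with an edgeR adjusted p of 0.296. Mt-nd1 and Mt-nd2 were nearly level, at 0.034 and 0.0087, and turned negative when 1 of several rats was left out.

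Replicate 1 of SCI 1 week was the lowest of its group for 5 of the 7 genes, but not for Mt-nd3 or Mt-nd6. That rat had Mt-nd1 at 931 CPM where the others had 1401 to 1933, and Mt-nd2 at 533 CPM where the others had 804 to 1041. Its Mt-nd3 level of 1264 CPM was the median of the group, which ran from 965 to 1376 CPM, and its Mt-nd6 level of 55.1 CPM lay above that of replicate 4. The log2 fold change of Mt-nd3 against sham 1 week was 0.17 (SE 0.113), with an edgeR adjusted p of 0.517.

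The difference of the injury effects at 12 and 1 weeks tests whether the injured-minus-sham difference changed with time. It was negative for all 7 genes, with a median of -0.68 on the log2 scale against 0.013 for all genes. No member passed, against 0.0% of all genes, and 5 of 7 had an unadjusted p under 0.05, against 8.38%: Mt-nd6, Mt-nd4l, Mt-nd5, Mt-nd4 and Mt-nd3. Mt-nd6 had the largest difference of the 7, -0.86 (SE 0.227, 95% interval -1.33 to -0.39), with an edgeR adjusted p of 0.214. DESeq2 gave -0.87 for Mt-nd6 with an adjusted p of 0.0364 and called it, among 18 of 14801 genes called. Limma-voom gave -0.92 with an adjusted p of 0.0886 and did not call it, with 3 genes called in all. Without SCI 12 weeks replicate 5, the highest of its group in Mt-nd6, it was -1.12 with an edgeR adjusted p of 0.00207. Then 2 of 14931 genes were called. Over the alternatives, that fit included, the adjusted p of Mt-nd6 ran from 0.00207 to 0.440.

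Both arms of that difference can be followed. Between the sham groups, all 7 genes had higher fitted levels at 12 weeks than at 1 week, with a median log2 fold change of 0.33 against -0.0034 for all genes. None of the 7 passed (0.0% of all genes), and 2 of 7, Mt-nd4l at 0.39 and Mt-nd6 at 0.33, had an unadjusted p under 0.05, against 8.24%. Mt-nd5 was the 1 gene whose sham 12 weeks rats, at 605 CPM or more, all lay above the sham 1 week rats, at 593 CPM or less, against 1.11% of all genes. In CPM without TMM factors this held for 2 genes, Mt-nd4l and Mt-nd5, against 0.696%. The low sham 1 week rats were replicates 4 and 5, with 406 and 372 CPM.

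Between the injured groups, all 7 genes had lower fitted levels at SCI 12 weeks than at SCI 1 week, with a median log2 fold change of -0.32 against 0.0021. The edgeR test called 0 of the 7, against 0.0811% of all genes, and 1, Mt-nd6, had an unadjusted p under 0.05, against 11.0%. The later rats lay wholly below the earlier rats for 0 of 7, against 0.986%. Mt-nd6 had a log2 fold change of -0.53 (SE 0.161), with an edgeR adjusted p of 0.217. Without SCI 12 weeks replicate 5, the highest of its group in Mt-nd6, this was -0.79 with an edgeR adjusted p of 0.00443. Then 10 of 14931 genes were called. Over the alternatives, that fit included, the adjusted p of Mt-nd6 ran from 0.00443 to 0.433. These comparisons share groups with the ones above and are not independent of them.

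At 3 and 6 weeks there was no sham group of the same time, so the injured rats were set against the mean of both sham groups. All 7 genes had higher fitted levels in sham 12 weeks than in sham 1 week, so a direction against their mean can depend on the sham group. At SCI 3 weeks all 7 genes had lower fitted levels than that mean, from -0.31 for Mt-nd2 to -0.047 for Mt-nd6 on the log2 scale. The median of all genes was 0.0033. None of the 7 passed, against 0.0% of all genes, and 0 had an unadjusted p under 0.05, against 7.11%. Without SCI 3 weeks replicate 1, which stood apart, all 7 were lower with a median of -0.20, where it was -0.14 with all libraries. The median was -0.30 without replicate 2 and -0.21 without replicate 3. Without replicate 4 it was -0.038, with 6 of 7 lower and Mt-nd4 at -0.0052, and without replicate 5 it was also -0.038, with 6 of 7 lower. Replicates 4 and 5 were the lowest of the group for all 6 heavy-strand genes. The gap was wide in Mt-nd5, at 308 and 327 CPM where replicates 1 to 3 had 600, 732 and 607 CPM, and narrow in Mt-nd3, at 943 and 960 CPM where the lowest of the others had 984 CPM. For Mt-nd6 the same 2 rats had 47.6 and 38.7 CPM, and the others 55.6, 57.3 and 44.7 CPM. In Mt-nd6 replicate 4 thus lay above replicate 3. Set beside each sham group, mean levels at SCI 3 weeks were below sham 12 weeks for all 7 genes. Against sham 1 week only Mt-nd1 (1385 against 1495 CPM) and Mt-nd2 (772 against 860 CPM) were lower. The other genes were level or higher, such as Mt-nd4l at 81.7 against 81.3 CPM and Mt-nd6 at 48.7 against 44.9 CPM. A difference from either sham group alone was not tested.

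At SCI 6 weeks all 7 genes had higher fitted levels than the mean of the sham groups, from 0.017 for Mt-nd3 to 0.33 for Mt-nd6. The median was 0.24, against 0.0022 for all genes. Without the 4 shallowest libraries, which include replicates 1 and 2 of this group, all 7 stayed higher. The median was then 0.21 and the lowest edgeR adjusted p of the members 0.728. No member passed, against 0.0% of all genes, and 1, Mt-nd6 (edgeR adjusted p of 0.582), had an unadjusted p under 0.05, against 8.22%. Mt-nd6 was at 65.2, 51.5, 62.3, 69.3 and 67.7 CPM in these rats, with replicate 2 the lowest. Mean levels at SCI 6 weeks were above sham 1 week for all 7 genes, but nearer to sham 12 weeks. Mt-nd1 was at 1787 CPM, against 1495 in sham 1 week and 1707 in sham 12 weeks. Mt-nd3 was below sham 12 weeks, at 1137 against 1176 CPM. A difference from either sham group alone was not tested. All injured against all sham rats gave log2 fold changes from -0.12 for Mt-nd2 to 0.040 for Mt-nd6. The edgeR test called 0 of the 7, against 0.0% of all genes, 0 had an unadjusted p under 0.05, against 13.0%, and the 95% intervals of all 7 lay within 1.5-fold.

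The genes varied together across the 30 rats to different degrees. Among Mt-nd1, Mt-nd2, Mt-nd4l, Mt-nd4 and Mt-nd5, the 10 pairs had Pearson's r from 0.894 to 0.972 and Spearman's rho from 0.850 to 0.952 on log2 CPM. All 10 had a Benjamini-Hochberg adjusted p of 2.1e-05 for both measures over the 21 pairs tested (permutation test, two-sided), the smallest that 100000 resamples gave here. The pair of highest r was Mt-nd4l and Mt-nd5, at 0.972, just above Mt-nd4l and Mt-nd4, which share a message, at 0.971. Without the 2 rats farthest from the median these 10 pairs kept r of 0.912 to 0.964, and with each group centred on its mean, 0.886 to 0.963. The shared variation was therefore present among rats of the same group.

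Mt-nd3 and Mt-nd6 followed the other genes less closely. The 6 pairs with Mt-nd3 had r from 0.321 to 0.549 and rho from 0.297 to 0.559, with adjusted permutation p of 0.00282 to 0.0830 for r and 0.00214 to 0.110 for rho. The 6 pairs with Mt-nd6 had r from 0.321 to 0.720 and rho from 0.297 to 0.725, with adjusted permutation p of 5.73e-05 to 0.0830 for r and 7.64e-05 to 0.110 for rho. The pair of Mt-nd3 and Mt-nd6 was the lowest of all 21, with r = 0.321 and an adjusted permutation p of 0.0830, and r was 0.234 without the 2 farthest rats and 0.078 after centring. The differences between these correlations were not tested.

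**Figure D3:**
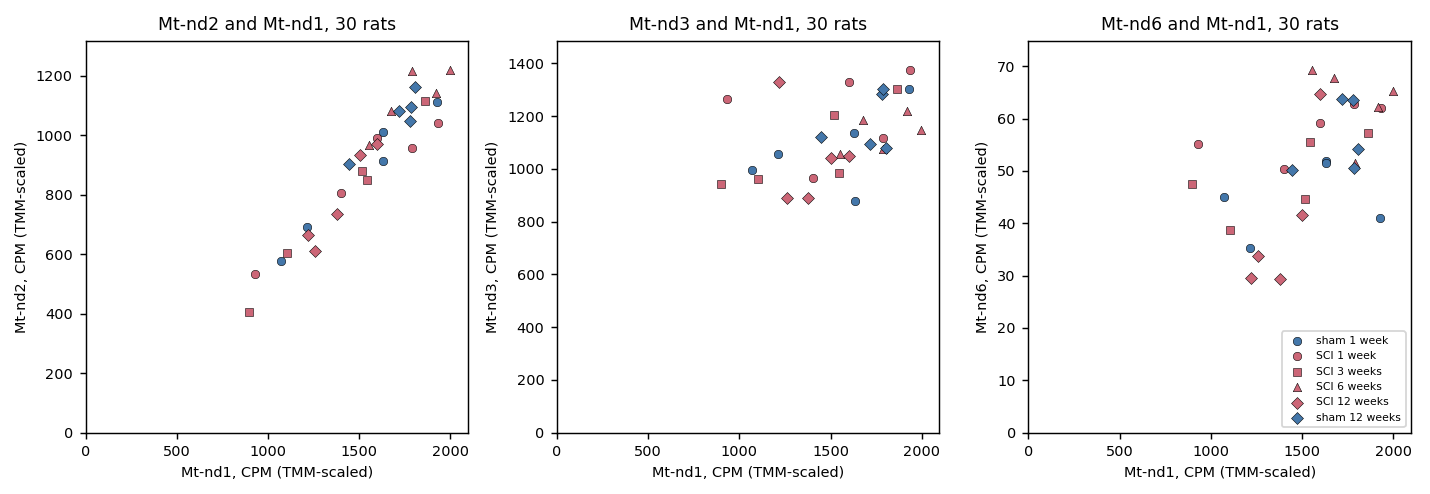
Levels of Mt-nd2, Mt-nd3 and Mt-nd6 against Mt-nd1 in 30 rats, all in TMM-scaled CPM; colour marks sham (blue) and SCI (red), and shape marks the week. Mt-nd2 follows Mt-nd1 closely (r = 0.967), while Mt-nd3 (r = 0.410) and Mt-nd6 (r = 0.510) scatter.

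Within the summed counts, Mt-nd3 equalled 36.2% ± 8.47 of the other 6 genes together (SD, n = 30), from 26.9% in sham 1 week replicate 2 to 61.0% in SCI 1 week replicate 1. The 4 highest rats were SCI 1 week replicate 1 at 61.0%, SCI 12 weeks replicate 2 at 54.9%, SCI 3 weeks replicate 4 at 54.2% and sham 1 week replicate 5 at 46.3%. Mt-nd6 equalled 1.22% ± 0.243 of the other 6 genes, from 0.790% in SCI 12 weeks replicate 2 to 1.81% in SCI 3 weeks replicate 4. By group it was 1.03% ± 0.283 at SCI 12 weeks, 1.19% ± 0.143 in sham 12 weeks, 1.36% ± 0.190 at SCI 1 week and 1.14% ± 0.244 in sham 1 week (SD, n = 5), and these groups overlapped.

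**Figure D4:**
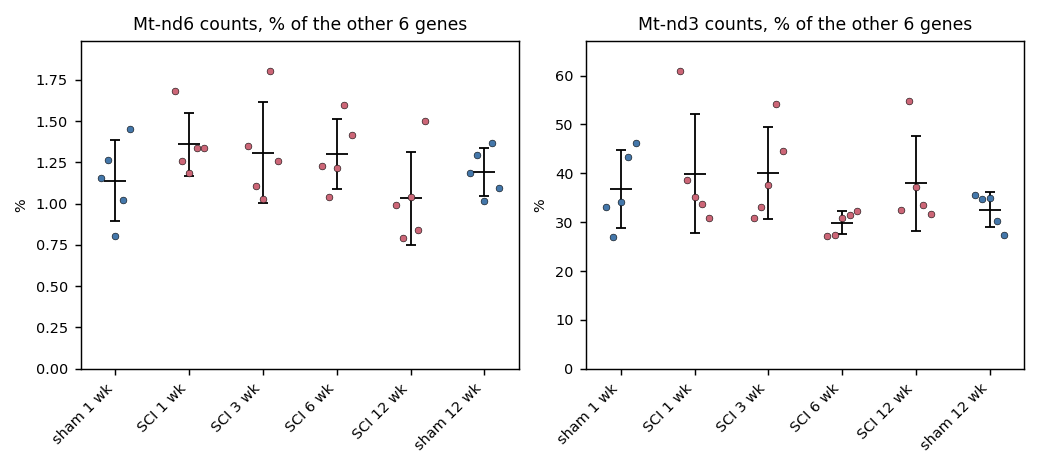
Counts of Mt-nd6 and of Mt-nd3 as a percentage of the counts of the other 6 genes, by group; points are rats, bars are mean ± SD (n = 5). For Mt-nd6, SCI 12 weeks replicates 2 and 4 lie lowest in their group at 0.790% and 0.840%, and replicate 5 of that group stands at 1.503%.

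The variation between rats was much larger than counting error. The standard error from counting alone was 0.377% to 1.00% of the level for Mt-nd1 over the 30 libraries and 2.59% to 6.46% for Mt-nd6. The fitted biological coefficient of variation was 23.6% for Mt-nd2, 22.9% for Mt-nd4, 17.4% for Mt-nd6 and 12.6% for Mt-nd3. The median over all genes tested was 11.5%, and the trend at the abundance of the members was 8.66% to 9.88%. No correlation of a member's level with the log2 total of its library passed, with r from -0.232 for Mt-nd5 to 0.048 for Mt-nd3 and rho from -0.277 to 0.124 (30 rats, lowest adjusted permutation p of 0.550 for r and 0.596 for rho over 7). Without the 2 libraries farthest from the median, r ran from -0.214 to 0.102.

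Of the other 14794 genes tested, the 2 with the highest mean r with the members over the 30 rats carry the identifiers ENSRNOG00000031979 and ENSRNOG00000031766. For ENSRNOG00000031979 the mean r was 0.819, with 0.957 for Mt-nd2 and 0.495 for Mt-nd6. ENSRNOG00000031766 had a mean r of 0.816, with 0.972 for Mt-nd2 and 0.439 for Mt-nd3. A mean r over 0.7 was found for 6 genes, and none had one under -0.7. At SCI 12 weeks against sham 12 weeks the log2 fold changes of the 2 named genes were -0.28 and -0.29, each with an edgeR adjusted p of 0.903. Both were picked for their correlation with the members in the same 30 rats, so a direction like that of the members is no separate observation.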

How the data were processed

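The authors deposited counts, whole numbers of reads per gene before any normalization, with 1 table for each library. Per the labels' protocols, ribosomal RNA was removed from total RNA and the libraries keep strand information. Tools named per the submitters' processing notes are STAR 2.5.3a, featureCounts, Trimmomatic and bcl2fastq 2.19.05, with the build Rnor_6.0. How the counting treated strand, overlapping genes and multi-mapped reads, and its annotation release, is not given in the sources used. Values of Mt-nd6, which has transcripts on the opposite strand, of the overlapping Mt-nd4l and Mt-nd4, and of genes with copies in the nuclear genome are uncertain to that extent. Mitochondrial sequences and coordinates were not used here.

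The counts were tested with edgeR 4.0.16 in R 4.3.3 (TMM, filterByExpr, robust quasi-likelihood fit, 1 model of 6 groups), checked on simulated counts, with adjustment over all genes tested at a threshold of 0.05. DESeq2 1.42.0 and limma 3.58.1 were alternatives. For correlations, TMM-scaled CPM were put on a log2 scale (prior count 2) and tested with 100000 permutations. Each library is described as 1 rat. Over 60 pairs within groups the chi-square per degree of freedom was 4.39 to 37.4, so no pair looked like a repeat deposit of 1 library, but separate libraries of 1 rat could differ as much. The labels name no batch that differs between libraries. The genes named are all members and the 2 other genes of highest mean r with them. The members and lists were chosen with earlier results of these data known. The reference table paired 0 of 32545 identifiers with a symbol, so the planned lists of pathway genes and cell markers were left out.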

Additional observations from a re-analysis of the deposited data

Results flagged for a closer look

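Of 54 sets of 5 rats (the TMM-scaled CPM of each of 7 genes, the summed share and the ratio of Mt-nd6 to the others, in each group), 1 had a rat that stood apart: Mt-nd1 in sham 12 weeks, where replicate 1 at 1445 CPM was lowest and the others had 1718 to 1804 CPM. Its gap to the nearest rat was 0.761 of the whole range, above the critical ratio of 0.71, and chance alone gives about 2.7 such sets in 54. The ratio of Mt-nd3 to the others was not among the 54 sets. In that ratio SCI 1 week replicate 1 stood at 61.0%, where the others of its group had at most 38.7%. SCI 12 weeks replicate 2 stood at 54.9%, where the others of its group had at most 37.2%.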

How the results depend on the processing

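For the 7 genes in 8 comparisons (56 fold changes), 43 alternatives gave 2408 values, of which 2364 kept direction and side of the threshold, 4 became calls and 40 changed sign. The 4 calls were all of Mt-nd6. DESeq2 raised the members called from 0 to 1 for the difference of the injury effects (18 genes called in all) and for any difference among the 6 groups (141 in all). Leaving out single libraries gave 0 to 1 members called for SCI 12 weeks against sham 12 weeks, SCI 12 weeks against SCI 1 week, the difference of the injury effects and any difference among the 6 groups, and each 1 came without SCI 12 weeks replicate 5. The cause was not tested. Sign changes came in 9 fold changes, each under 0.25 in size and none called. With 1 library left out these ran from -0.067 to 0.17 (Mt-nd1) and -0.11 to 0.14 (Mt-nd2) at SCI 1 week, from -0.30 to 0.0011 (Mt-nd5) and -0.12 to 0.024 (Mt-nd6) at SCI 3 weeks, from -0.014 to 0.056 (Mt-nd3) at SCI 6 weeks, and for all injured rats from -0.044 to 0.027 (Mt-nd3), -0.088 to 0.052 (Mt-nd4), -0.067 to 0.017 (Mt-nd5) and -0.024 to 0.070 (Mt-nd6). Library totals alone gave -0.0095 for Mt-nd3 at SCI 6 weeks. For all injured rats, the log2 library total as a covariate gave 0.013 (Mt-nd3) and 0.014 (Mt-nd4), and counting sham 1 week replicate 1 as injured gave 0.0032 (Mt-nd4) and 0.017 (Mt-nd5). The replicate numbers are not stated to pair the rats. Same-numbered rats of different groups had a median correlation of 0.0065 in their deviations, against -0.0012 for differently numbered rats. Of the same-numbered pairs, 8 of 75 exceeded 0.1, and the share among the other pairs was not counted. With the replicate block 0 members were called in each of the 9 tests, the lowest adjusted p being 0.195 (Mt-nd6, -0.55, SCI 12 weeks against SCI 1 week).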
